A study of Mus musculus with 8 samples.

Results

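The genes examined here serve the entry of new proteins into the endoplasmic reticulum (ER), their glycosylation and folding, the disposal of misfolded chains and the export of finished cargo. They are 49 genes, chosen by name among the 43629 genes of the count table, and all 49 were found there. The set was split by step into 9 genes of the translocon, 7 of N-glycosylation, 14 of folding, 7 of the unfolded protein response, 6 of ER-associated degradation and 6 of the COPII coat. The libraries came from Axin2CreERT2;R26RTdTomato mice, which carry a tamoxifen-inducible Cre driven by *Axin2* and a red reporter, and every animal carried both alleles. Tamoxifen was injected on 3 consecutive days from P23 and the animals were killed at P30. Red resting zone cells and unlabelled, flattened proliferative zone cells at least 50 μm from the secondary ossification center were cut by laser from 8 μm frozen sections of the growth plate, from 4 mice (1 and 2 male, 6 and 13 female). Each mouse gave 1 library per zone. The red label marks cells in which *Axin2* was active at the time of the injections, and their descendants, so the resting zone samples are not every cell of that zone.

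Cells that secrete large amounts of matrix rely on this route. A nascent secretory protein passes through the Sec61 channel, receives its N-linked glycan from the oligosaccharyltransferase, and is folded by Hsp70 and Hsp90 chaperones, by the lectins calnexin and calreticulin and by protein disulfide isomerases. When folding capacity is exceeded, the sensors Ire1 (*Ern1*), Perk (*Eif2ak3*) and Atf6 start the unfolded protein response. Chains that fail to fold are carried back to the cytosol for degradation, and those that succeed leave in COPII vesicles. In cartilage the cargo is above all procollagen and proteoglycan, and loss of a COPII component such as Sec23a, or of the ER stress transducer Creb3l2 (BBF2H7), is known to trap matrix proteins in chondrocytes.

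Levels are given in CPM, that is, gene counts scaled to a common library size with edgeR's TMM factors. Resting libraries held 192882 to 462044 counts on genes and proliferative libraries 249284 to 631474, and 1 count was worth 1.60 to 4.91 CPM. Log2 fold changes are resting over proliferative, so a negative value is a higher level in the proliferative zone. To be called, a gene needed an adjusted p below 0.01 and a log2 fold change beyond 1 in either direction. The p came from edgeR's quasi-likelihood test and was adjusted by Benjamini-Hochberg over the 3793 genes that passed a filter on low counts. The filter kept 40 of the 49 genes; the other 9 (*Hyou1*, *Dnajb9*, *Sdf2l1*, *Pdia4*, *Creld2*, *Ern1*, *Eif2ak3*, *Atf6* and *Sec23b*) are described from a second fit over 17492 genes. Values listed for single libraries follow the order of mice 1, 2, 6 and 13.

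As a whole the set stood lower in the resting zone. Its summed level was 4308, 4060.4, 4508 and 4299 CPM in the resting libraries and 7127, 8095, 8483 and 9564 CPM in the proliferative libraries, and the zones did not overlap. The means were 4294 ± 183 CPM and 8317 ± 1008 CPM (SD, n = 4), a ratio of 1.94. In shares of all counts, the set held 0.425% to 0.490% of resting and 0.672% to 0.925% of proliferative libraries, with 95% Clopper-Pearson intervals whose bounds ran from 0.402% to 0.511% and from 0.650% to 0.963%. These intervals cover counting error only, since the RNA was amplified and reads carry no molecular identifiers. In these bulk samples, fewer cells of a type and less RNA of these genes per cell cannot be told apart.

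Of the 40 genes tested, 8 were called higher in the proliferative zone and 0 in the resting zone, where 0 had an unadjusted p below 0.05 either. Over all tested genes, 6.93% were called higher in the proliferative zone and 11.0% in the resting zone. When the TMM factors were taken from all genes with a count, the median of all tested genes moved by -0.23 on the log2 scale and the proliferative share of all calls moved from 38.6% to 52.4%. Under that scaling 12 of the 40 genes were called higher in the proliferative zone and 0 in the resting zone, against 9.31% and 8.46% of all tested genes. The log2 fold change was below 0 for 36 of the 40 genes and for 42 of all 49, against 46.3% of all tested genes. The median over the 40 genes was -0.86, against 0.08 over all tested genes. Relative to the median of all tested genes it was -0.94 with the scaling used here and -0.93 with the other one. By step, 4 of 9 translocon genes, 3 of 7 glycosylation genes and 1 of 9 tested folding genes were called, and the median log2 fold changes over the tested genes were -1.32, -1.12 and -0.96. The unfolded protein response, degradation and COPII had 0 calls of 4, 6 and 5 tested genes, with medians of -0.54, -0.05 and -0.74. Every resting library lay below every proliferative library for 20 of the 49 genes, and the reverse was seen for 0. Among all tested genes these shares were 15.1% and 17.8%.

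**Figure D1:**
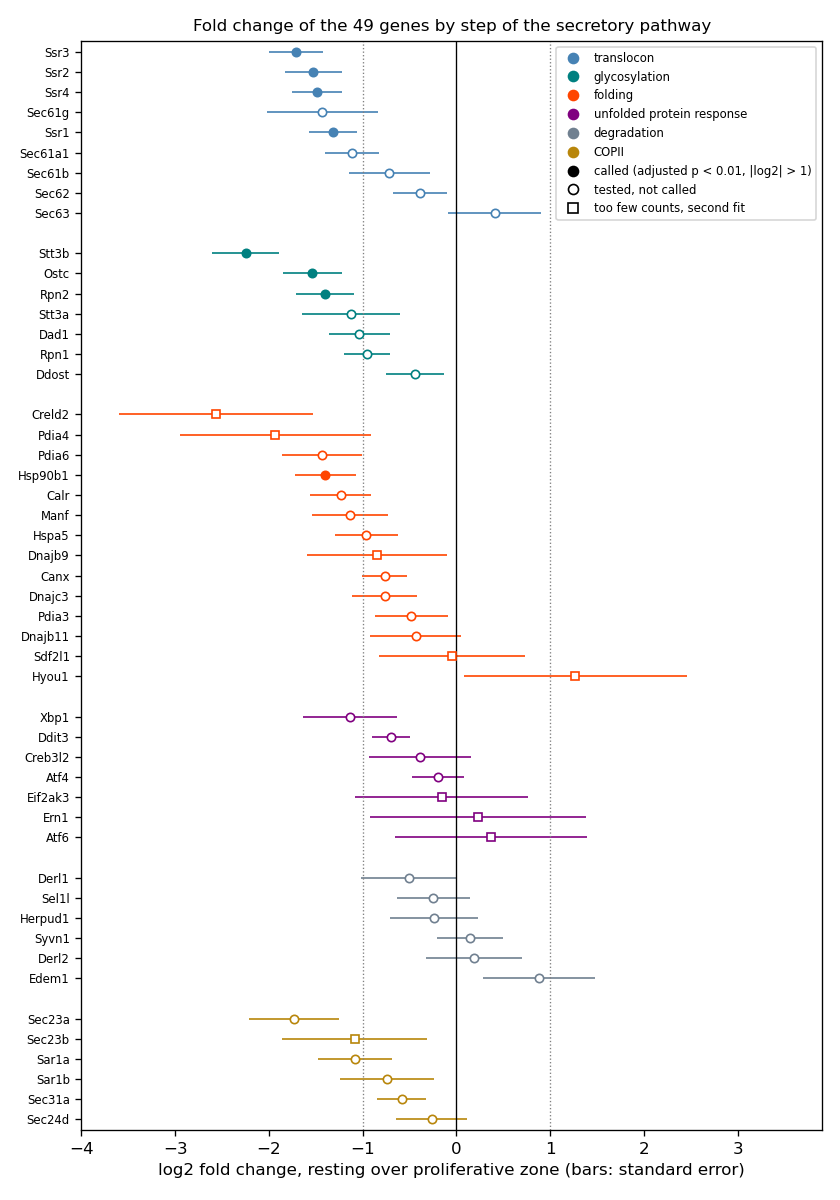
Log2 fold change (resting over proliferative zone, horizontal axis) of each of the 49 genes, ordered within the 6 steps, with bars of 1 standard error. Filled points are the 8 called genes, open circles the other tested genes and squares the 9 genes with too few counts, and most points of translocon, glycosylation, folding and COPII lie to the left of 0 while those of degradation lie around it.

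Markers of several other cell types were higher in the resting libraries. Summed over 10 osteoblast and osteocyte markers, the level was 8628 to 36748 CPM in resting and 619.9 to 3864 CPM in proliferative libraries. Most of this sum was *Col1a1* and *Col1a2* (means of 15162 and 7454 CPM in the resting zone), the 2 of the 4 tested markers that were called higher there. *Dmp1* had a log2 fold change of 2.79 (adjusted p = 0.0168), and *Sp7* had -1.30 (adjusted p = 0.0471). The 9 neutrophil markers summed to 3136 to 3870.2 CPM against 0 to 534 CPM, with *Elane* and *Mpo* at 0 in every proliferative library. Erythroid (8 listed, 1855 to 12051 against 0 to 1716 CPM) and osteoclast markers (9 listed, 1559 to 4741 against 78.8 to 479.5 CPM) were also higher in the resting zone. So were the sums of macrophage (10 listed, 967 to 1132 against 193 to 485 CPM), B and plasma cell (11 listed, 142 to 282 against 1.60 to 27.2 CPM) and endothelial markers (6 listed, 109 to 249 against 1.71 to 13.6 CPM). Of the tested markers, 6 of 7 neutrophil, 4 of 7 erythroid and 4 of 5 osteoclast markers were called higher there. So were 2 of 3 macrophage and 2 of 2 B and plasma cell markers, and 0 endothelial markers were tested. The macrophage marker *Csf1r* had means of 369 and 305 CPM (log2 fold change 0.28, adjusted p = 0.471). The 12 chondrocyte markers, all detected in both zones, summed to 7541 to 19581 CPM in resting and 35164 to 60289 CPM in proliferative libraries, and 7 of the 12 were called higher in the proliferative zone. The 8 prehypertrophic and hypertrophic markers moved in both directions, so that their sums overlapped (815 to 2057 against 1456 to 2233 CPM). *Panx3* (means of 24.4 and 736 CPM, log2 fold change -4.78, adjusted p = 5.01e-05) and *Col10a1* (7.85 and 189 CPM, -4.28, 0.00139) were called higher in the proliferative zone, and *Ihh* was at 0 in every resting library against a mean of 18.6 CPM. *Pth1r* and *Mef2c* had log2 fold changes of -1.66 and -1.57 (adjusted p = 0.0119 and 0.0113). *Mmp13*, which osteoblasts also express, was called higher in the resting zone (537 and 21.6 CPM, log2 fold change 4.66, adjusted p = 0.00109), *Ibsp* had 3.82 (adjusted p = 0.0136) and *Runx2* had -0.25 (adjusted p = 0.515). Resting library 6 had the highest chondrocyte sum and the lowest osteoblast sum of its zone. The part of these differences in the values below was not tested.

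Of the genes at the translocon, the 4 subunits of the translocon-associated protein complex (TRAP), which sits beside the channel and helps many signal sequences to insert, rose together in the proliferative zone. *Ssr1* (TRAP alpha; chr13:37966605-37994217, minus strand, mouse build GRCm38) measured 331, 507, 231 and 344 CPM in the resting libraries and 757, 1005, 833 and 921 CPM in the proliferative libraries. *Ssr2* (TRAP beta; chr3:88575876-88588419, plus strand) measured 197, 95.1, 139 and 172 CPM in the resting libraries and 309, 353, 485 and 593 CPM in the proliferative libraries. For *Ssr3* (TRAP gamma; chr3:65379655-65392623, minus strand) the resting levels were 167, 162, 85.5 and 211 CPM and the proliferative levels 464, 467, 479 and 618 CPM. In each of these genes the highest resting library stayed below the lowest proliferative one. The X-linked *Ssr4* (TRAP delta; chrX:73787028-73790830, plus strand) likewise ran from 134, 105, 119 and 68.7 CPM in the resting libraries to 249, 296, 338 and 332 CPM in the proliferative ones, without overlap. The levels in the proliferative zone were 2.49-fold (*Ssr1*; log2 fold change -1.32 ± 0.26 (SE), adjusted p = 0.00224), 2.88-fold (*Ssr2*; log2 fold change -1.52 ± 0.30 (SE), adjusted p = 0.00226), 3.28-fold (*Ssr3*; log2 fold change -1.71 ± 0.29 (SE), adjusted p = 0.000866) and 2.81-fold those of the resting zone (*Ssr4*; log2 fold change -1.49 ± 0.27 (SE), adjusted p = 0.00124). All 4 were called under each of the 8 planned or added refits of the full set of libraries and after leaving out any 1 of the 8 libraries. *Ssr2* shares 239 exonic bases on the opposite strand with the pseudogene *Gm10704*, which had 4 counts in the resting and 14 in the proliferative zone.

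The genes of the Sec61 channel, with *Sec62* and *Sec63*, gave 0 calls in the same test. *Sec61a1*, which forms the pore, measured 85.1, 76.1, 79.6 and 49.1 CPM in the resting libraries and 142, 137, 197 and 162 CPM in the proliferative libraries. The zones did not overlap, but the test missed the threshold (log2 fold change -1.12 ± 0.29 (SE), adjusted p = 0.0110). *Sec61a1* was called with the likelihood ratio test, DESeq2, RLE factors, the filter of at least 10 counts in every library, no filter beyond 1 count, and TMM factors from all genes (adjusted p = 0.00216, 0.00258, 0.00994, 0.00785, 0.00737 and 0.00454). It was not called with the mouse as a replicate block (0.0247), in the second fit (0.0307) or with any 1 library left out (0.0103 to 0.0282). *Sec61g*, the gamma subunit, was listed at 36.5, 12.7, 23.9 and 0 CPM and 64.1, 59.9, 56.1 and 29.0 CPM, and 1 resting library overlapped the proliferative range (log2 fold change -1.43 ± 0.59 (SE), adjusted p = 0.0840). *Sec61b*, the beta subunit, had a log2 fold change of -0.72 and an adjusted p of 0.236. *Sec62* and *Sec63*, which help the channel with chains that arrive after synthesis and couple it to the chaperone BiP, had log2 fold changes of -0.38 and 0.41 with adjusted p = 0.346 and 0.579, and *Sec63* was the one translocon gene with a positive value. *Sec62* shares 509 exonic bases on the opposite strand with *4933429H19Rik*, which had 165 counts in the resting and 440 in the proliferative zone. Summed over the 9 genes, the translocon measured 1116 ± 65.9 CPM in resting and 2653 ± 314 CPM in proliferative libraries (SD, n = 4), a ratio of 2.38.

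**Figure D2:**
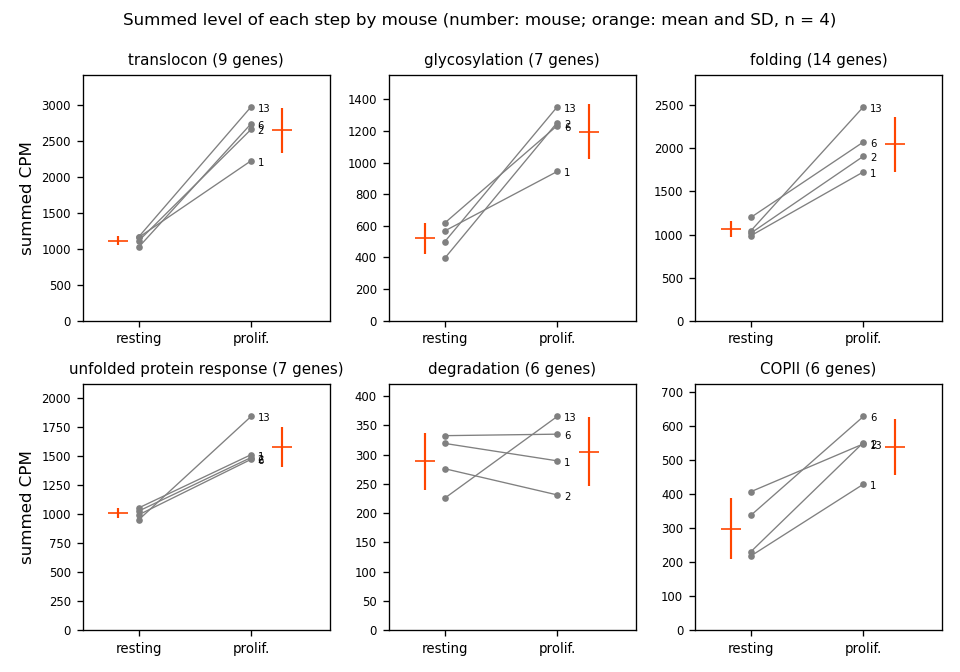
Summed CPM of the genes of each step (vertical axes from 0) in the resting and proliferative library of each mouse, joined by a grey line, with mean and SD in orange (n = 4). The lines of 5 steps rise in all 4 mice and the 2 zones do not overlap there, while in degradation they cross.

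N-glycosylation had 3 called genes of 7, all subunits of the oligosaccharyltransferase or its partners. *Stt3b* (chr9:115242581-115310421, minus strand) encodes the catalytic subunit that works on chains the translocon-bound enzyme has missed. It measured 33.4, 15.8, 25.9 and 39.3 CPM in resting and 107, 158, 131 and 141 CPM in proliferative libraries. That 4.75-fold difference was the largest in size among the 40 tested genes (log2 fold change -2.25 ± 0.36 (SE), adjusted p = 0.000642). *Ostc* (chr3:130695912-130709444, minus strand), which helps to tie the Stt3a form of the enzyme to the translocon, measured 88.1, 69.7, 139 and 128 CPM against 184, 359.5, 381 and 311 CPM (log2 fold change -1.54 ± 0.32 (SE), adjusted p = 0.00288). *Rpn2* (chr2:157279017-157326319, plus strand), ribophorin II, measured 66.8, 41.2, 53.7 and 39.3 CPM against 124, 140.4, 119 and 158 CPM (log2 fold change -1.40 ± 0.31 (SE), adjusted p = 0.00427). The zones did not overlap for these genes. The call of *Rpn2* was lost with the mouse as a replicate block (adjusted p = 0.0134) and without resting library 2, resting library 13, proliferative library 2 or proliferative library 13 (0.0107, 0.0104, 0.0114 and 0.0102). The call of *Ostc* was lost without resting library 1 (0.0109), and that of *Stt3b* was lost in no setting that tested it.

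The other glycosylation genes pointed the same way with less certainty. *Rpn1*, ribophorin I, measured 158, 130.0, 197 and 118 CPM in resting and 276, 301, 258 and 348 CPM in proliferative libraries without overlap (log2 fold change -0.95 ± 0.25 (SE), adjusted p = 0.0112), and it passed both thresholds without resting library 6 (log2 fold change -1.14, adjusted p = 0.00371), with no filter beyond 1 count (-1.17, 0.00829) and with TMM factors from all genes (-1.17, 0.00404), and in no other of the 16 alternatives. *Dad1*, a small subunit named for its defence against cell death, measured 36.5, 44.4, 45.8 and 63.8 CPM against 83.5, 108, 84.9 and 112 CPM, again without overlap (log2 fold change -1.04 ± 0.32 (SE), adjusted p = 0.0275), and of the alternatives at the 0.01 threshold it was called by the likelihood ratio test alone (adjusted p = 0.00842). *Stt3a*, the translocon-bound catalytic subunit, had 1 resting library apart from the rest. Its resting levels were 97.2, 22.2, 23.9 and 19.6 CPM and its proliferative levels 56.3, 85.6, 94.5 and 129 CPM (log2 fold change -1.12 ± 0.52 (SE), adjusted p = 0.121). Without resting library 1 it was called, with a log2 fold change of -2.02 and an adjusted p of 0.00637. *Ddost* had a log2 fold change of -0.44 (adjusted p = 0.315). The 7 genes summed to 521 ± 96.2 CPM in resting and 1196 ± 176 CPM in proliferative libraries, a ratio of 2.30.

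**Figure D3:**
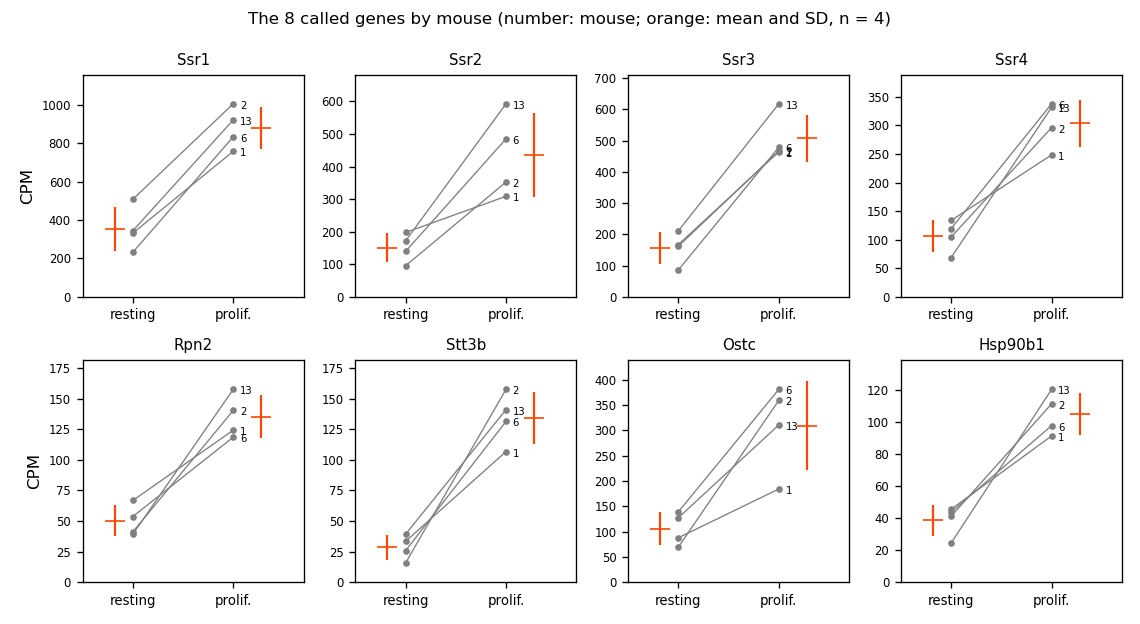
CPM of the 8 called genes (vertical axes from 0) in the resting and proliferative library of each mouse, joined by a grey line and numbered by mouse, with mean and SD in orange (n = 4 per zone). In each panel the 4 resting libraries lie below the 4 proliferative libraries.

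Among the folding genes, *Hsp90b1* (Grp94, the Hsp90 chaperone of the ER; chr10:86690209-86705509, minus strand) was the one called. It measured 45.6, 41.2, 43.8 and 24.5 CPM in the resting libraries and 91.2, 111, 97.7 and 120.3 CPM in the proliferative libraries, a 2.63-fold difference (log2 fold change -1.40 ± 0.33 (SE), adjusted p = 0.00603). This call was the least stable of the 8. It was lost with the mouse as a replicate block (adjusted p = 0.0192), in the second fit (adjusted p = 0.0157) and without any 1 of resting libraries 1, 2 and 13 and proliferative libraries 2, 6 and 13 (adjusted p 0.0108 to 0.0161). *Hsp90b1* shares 415 exonic bases on the opposite strand with *1810014B01Rik*, which had 241 counts in the resting and 1140 in the proliferative zone, more than *Hsp90b1* itself. That partner was also higher in the proliferative zone (log2 fold change -1.55, adjusted p = 0.00161). Whether the authors' counting used strand is not given in the sources used here. How reads in the shared bases, out of 4032 exonic bases of *Hsp90b1*, were assigned is therefore not known.

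*Hspa5* (BiP), the Hsp70 chaperone that pulls chains into the ER and holds the stress sensors inactive, measured 131, 91.9, 249 and 275 CPM in resting and 324, 351, 324 and 452 CPM in proliferative libraries. Its zones did not overlap, and resting libraries 6 and 13 came nearer to the proliferative ones than libraries 1 and 2 (log2 fold change -0.96 ± 0.33 (SE), adjusted p = 0.0433). Of the alternatives it was called with no filter beyond 1 count alone (log2 fold change -1.17, adjusted p = 0.00604). *Calr*, the soluble lectin calreticulin, measured 158, 95.1, 275 and 118 CPM against 336, 342, 375 and 494 CPM. Resting library 6 stood highest of its zone, and the test missed the threshold (log2 fold change -1.23 ± 0.32 (SE), adjusted p = 0.0119). *Calr* was called without that library (log2 fold change -1.65, adjusted p = 0.000879). With all libraries it was called by the likelihood ratio test, DESeq2, RLE factors, the second fit, no filter beyond 1 count, and TMM factors from all genes (adjusted p = 0.00278, 0.00256, 0.00954, 0.00237, 0.000371 and 0.00546), but not with the replicate block (0.0106), with at least 10 counts in every library (0.0108) or without any 1 of the other libraries (0.01003 to 0.0339). *Canx*, the membrane-bound counterpart calnexin, had means of 429 ± 94.5 and 731 ± 128 CPM (SD, n = 4; log2 fold change -0.77 ± 0.24 (SE), adjusted p = 0.0259). *Pdia6*, a disulfide isomerase that also restrains the stress sensors, measured 33.4, 19.0, 61.7 and 24.5 CPM against 77.7, 144, 101 and 66.4 CPM, narrowly without overlap (log2 fold change -1.44 ± 0.43 (SE), adjusted p = 0.0217). It too was called without resting library 6 (log2 fold change -1.94, adjusted p = 0.00443), and with all libraries by the likelihood ratio test, DESeq2 and no filter beyond 1 count (adjusted p = 0.00552, 0.00872 and 0.00370), but in none of the 11 other alternatives (0.0121 to 0.0680). *Pdia6* shares 50 exonic bases on the opposite strand with *Atp6v1c2*, which had 154 counts in the resting and 833 in the proliferative zone (log2 fold change -1.81, adjusted p = 0.00109).

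The remaining folding genes gave 0 calls. *Manf*, a secreted stress-induced factor, had means of 44.1 ± 15.2 and 97.3 ± 41.8 CPM (SD, n = 4; log2 fold change -1.13 ± 0.40 (SE), adjusted p = 0.0477). The Hsp40 co-chaperones *Dnajc3* and *Dnajb11* and the glycoprotein-specific isomerase *Pdia3* had log2 fold changes of -0.76, -0.44 and -0.48 with adjusted p = 0.117, 0.537 and 0.388. 5 folding genes stayed under the filter. Of these, *Creld2* (a stress-induced disulfide isomerase) had 4 counts in all resting libraries and 34 in all proliferative libraries, a ratio of 5.85 per unit of depth (95% interval 2.08 to 22.7, counting error only), and *Pdia4* had 5 against 29 counts, a ratio of 3.99 (1.53 to 13.2). In the second fit neither passed (*Creld2* adjusted p = 0.0684; *Pdia4* adjusted p = 0.202). *Dnajb9*, *Sdf2l1* and *Hyou1* had log2 fold changes of -0.85, -0.05 and 1.27 from 57, 48 and 18 counts in all, with adjusted p of 0.472, 0.976 and 0.488. The 14 folding genes summed to 1062 ± 94.5 CPM in resting and 2047 ± 322 CPM in proliferative libraries, a ratio of 1.93.

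Many chaperone promoters are known to carry the ER stress response element (ERSE), to which the factors NF-Y and Atf6 bind. RefSeq windows from 250 bases before to 50 bases after the gene start (GRCm38.p6) were found for 42 of the 49 genes, all but *Sec61a1*, *Ssr2*, *Ostc*, *Hyou1*, *Manf*, *Atf6* and *Derl1*. The element was searched on both strands as CCAAT, then 9 bases of any kind, then CCACG. It occurred in windows of 8 of the 42 genes (19.0%) and of 37 of all 27025 genes with windows of that length (0.137%). Since chaperone promoters are known to carry the element, these shares are no test of the set. Among further genes of the same route, described below, 2 of 91 held it, *Alg12* and *Derl3*. The *Alg12* match is the same site as that of *Creld2*. The matches are shown because 7 of the 8 genes belong to folding and 1 to degradation. Each is read 5′ to 3′ along the element, with the fixed bases in capitals.
*Hspa5*: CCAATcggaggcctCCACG
*Hsp90b1*, distal match: CCAATcgcaaggagCCACG
*Hsp90b1*, proximal match: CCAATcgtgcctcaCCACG
*Calr*: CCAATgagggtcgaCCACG
*Canx*: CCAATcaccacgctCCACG
*Pdia6*: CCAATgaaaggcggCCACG
*Dnajc3*: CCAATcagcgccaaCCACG
*Creld2*: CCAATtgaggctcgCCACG
*Syvn1*: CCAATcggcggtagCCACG

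The genes with a match did not share 1 size of difference. Of the tested ones, *Pdia6*, *Hsp90b1* and *Calr* had log2 fold changes of -1.44, -1.40 and -1.23, *Hspa5*, *Canx* and *Dnajc3* had -0.96, -0.77 and -0.76, and *Syvn1*, a degradation gene, had 0.15. The windows of the called genes *Ssr1*, *Ssr3*, *Ssr4*, *Rpn2* and *Stt3b* held no match, which says only that these letters are not in those windows. The related element ERSE-II, searched as ATTGG, 1 base of any kind, then CCACG, occurred in *Dnajb11* and *Herpud1* and in 0.0444% of all genes with a window. TGATGCAA, an element bound by Atf4 with a C/EBP partner, occurred in *Herpud1* and in 1.03% of all genes with a window. The 250 bases before the start of *Hspa5* (chr2:34771840-34772089, plus strand) and of *Hsp90b1* (chr10:86705445-86705694, minus strand) are printed 5′ to 3′ along the gene, with the fixed bases of each element in capitals, because the first holds a single match near the start and the second holds a pair, the proximal one in reverse orientation.
*Hspa5*: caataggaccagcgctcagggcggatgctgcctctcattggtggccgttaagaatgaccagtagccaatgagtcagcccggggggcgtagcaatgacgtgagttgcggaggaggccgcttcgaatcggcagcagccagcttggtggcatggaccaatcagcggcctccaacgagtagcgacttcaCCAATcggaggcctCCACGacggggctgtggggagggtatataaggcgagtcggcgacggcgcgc
*Hsp90b1*: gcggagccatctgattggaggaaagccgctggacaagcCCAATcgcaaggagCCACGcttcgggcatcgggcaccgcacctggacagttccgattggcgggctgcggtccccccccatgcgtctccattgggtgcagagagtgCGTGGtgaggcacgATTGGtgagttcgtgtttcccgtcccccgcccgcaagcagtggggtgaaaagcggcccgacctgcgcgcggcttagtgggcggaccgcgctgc

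The sensors and transcription factors of the unfolded protein response gave 0 called genes of 4 tested by edgeR's quasi-likelihood test, also with the likelihood ratio test and DESeq2, and 2 with an unadjusted p below 0.05. *Ddit3* (CHOP), a factor that promotes cell death under prolonged ER stress, measured 848, 900.2, 726 and 770.5 CPM in the resting libraries and 1301, 1239.5, 1203 and 1522 CPM in the proliferative libraries. It was higher in the proliferative zone in 4 of 4 mice without overlap, but its 1.62-fold difference lay below the required size and its adjusted p above 0.01 (log2 fold change -0.70 ± 0.20 (SE), adjusted p = 0.0175). *Ddit3* shares 68 exonic bases on the opposite strand with *Mars*, which went the other way, with 253 counts in the resting and 108 in the proliferative zone. *Xbp1*, the factor that Ire1 activates by splicing its mRNA, measured 48.6, 12.7, 35.8 and 14.7 CPM against 31.1, 65.1, 78.5 and 82.9 CPM. Resting libraries 1 and 6 lay above the lowest proliferative library, and the test did not pass (log2 fold change -1.13 ± 0.50 (SE), adjusted p = 0.104). Gene counts hold spliced and unspliced *Xbp1* together.

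*Atf4*, the factor translated when Perk is active, had the smallest log2 fold change of the 4 tested genes of this step. Its levels were 100.2, 91.9, 109 and 108 CPM in resting and 111, 95.9, 115 and 153 CPM in proliferative libraries, which overlapped (log2 fold change -0.20 ± 0.28 (SE), adjusted p = 0.626). Within each of the 4 mice the resting library was the lower one. *Creb3l2*, the transducer that raises COPII genes in chondrocytes, measured 24.3, 12.7, 95.5 and 34.4 CPM against 36.9, 63.3, 52.9 and 78.8 CPM. Its levels were lower in the resting zone in mice 1, 2 and 13 and higher in mouse 6 (log2 fold change -0.39 ± 0.54 (SE), adjusted p = 0.632). Leaving out single libraries moved this value, which was -1.32 without resting library 6 (adjusted p = 0.0505), -0.10 and -0.21 without resting libraries 2 and 1, -0.64 without proliferative library 1 and -0.66 with the mouse as a replicate block. For *Atf4* it was -0.31 and -0.36 without proliferative libraries 1 and 2. The 3 sensors were near the limit of detection, with 20, 34 and 25 counts over the 8 libraries for *Ern1*, *Eif2ak3* and *Atf6*, and log2 fold changes of 0.23, -0.16 and 0.37 (SE 1.16, 0.93 and 1.02). Small differences in the sensors were not detectable at this depth. The sum over the 7 genes was 1007 ± 43.9 CPM in resting and 1578 ± 176 CPM in proliferative libraries, a ratio of 1.57, and *Ddit3* alone made up most of it.

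**Figure D4:**
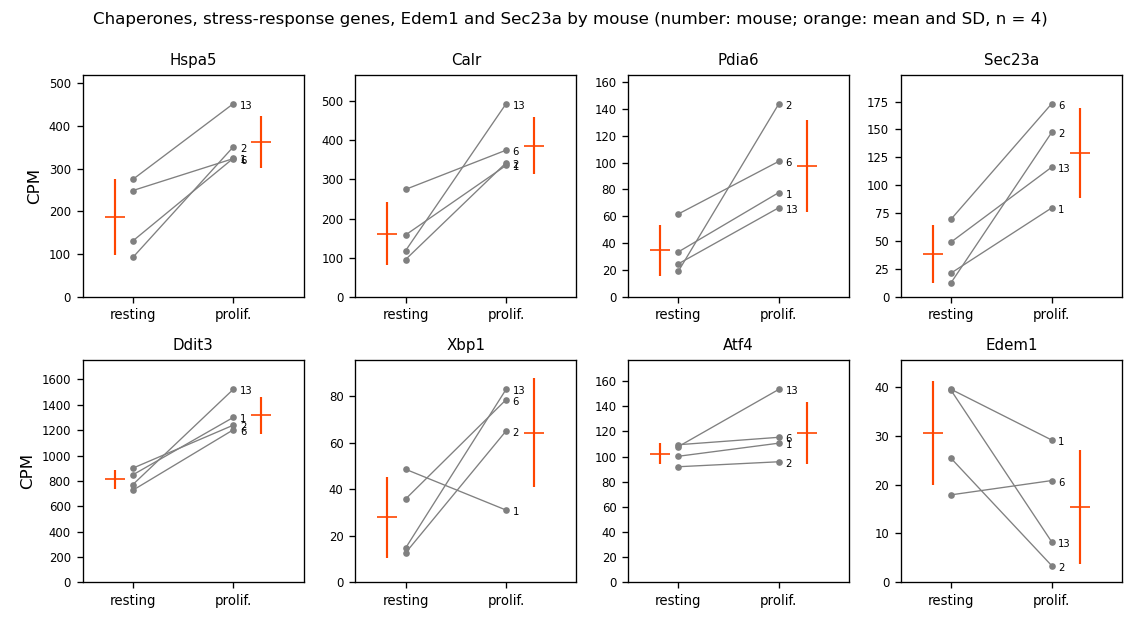
CPM of *Hspa5*, *Calr*, *Pdia6*, *Sec23a*, *Ddit3*, *Xbp1*, *Atf4* and *Edem1* (vertical axes from 0) in the resting and proliferative library of each mouse, joined by a grey line and numbered by mouse, with mean and SD in orange (n = 4 per zone). *Hspa5*, *Calr*, *Pdia6*, *Sec23a*, *Ddit3* and, by little, *Atf4* rise in all 4 mice, while mouse 1 falls in *Xbp1* and 3 of the 4 mice fall in *Edem1*.

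ER-associated degradation was the step in which the zones were closest. Its 6 genes were all tested, 0 were called by edgeR's quasi-likelihood test, the likelihood ratio test or DESeq2, 0 had an unadjusted p below 0.05, and 3 had a log2 fold change below 0. The summed level was 319, 276, 332 and 226 CPM in the resting libraries and 289, 231, 335 and 365 CPM in the proliferative libraries, with overlapping zones and a ratio of 1.06. *Edem1*, which extracts misfolded glycoproteins from the folding cycle, measured 39.5, 25.4, 17.9 and 39.3 CPM against 29.1, 3.42, 20.8 and 8.29 CPM. It was higher in the resting zone in 3 of 4 mice and did not pass the test (log2 fold change 0.88 ± 0.59 (SE), adjusted p = 0.293). *Derl1*, a part of the channel for retrotranslocation, measured 18.2, 66.6, 87.5 and 14.7 CPM against 42.7, 71.9, 89.7 and 74.7 CPM, with resting libraries 1 and 13 low and libraries 2 and 6 within the proliferative range (log2 fold change -0.50 ± 0.51 (SE), adjusted p = 0.498). Without resting libraries 1 and 13 in turn the log2 fold change was -0.25 and -0.28, and without resting library 6 or proliferative library 1 it was -1.03 and -0.77 (adjusted p 0.159 to 0.767 over these 4). The ubiquitin ligase *Syvn1* (Hrd1), its partner *Sel1l*, the channel component *Derl2* and the scaffold *Herpud1* had log2 fold changes of 0.15, -0.25, 0.19 and -0.24, with adjusted p = 0.793, 0.674, 0.819 and 0.734. With TMM factors from all genes *Syvn1* and *Derl2* turned to -0.08 and -0.04. *Syvn1* shares 91 exonic bases on the opposite strand with *Mrpl49*, which had 1015 counts in the resting and 1647 in the proliferative zone. *Derl2* shares 231 with *Mis12* (11 and 30 counts). The standard errors of the 6 degradation genes ran from 0.35 to 0.59.

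The COPII genes had 0 calls of 5 tested, with *Sec23a* closest, and 3 had an unadjusted p below 0.05. With the likelihood ratio test and with DESeq2 *Sec23a* was the 1 call. *Sec23a* (chr12:58958383-59012017, minus strand), which forms the inner coat and whose loss disturbs cartilage secretion, measured 21.3, 12.7, 69.6 and 49.1 CPM in the resting libraries and 79.6, 147, 173 and 116 CPM in the proliferative libraries. All 4 resting libraries lay below all 4 proliferative libraries, with a 3.32-fold difference (log2 fold change -1.73 ± 0.48 (SE), adjusted p = 0.0153). With the mouse as a replicate block it was called (log2 fold change -1.88, adjusted p = 0.00926), as it was without resting library 6 (-2.33, 0.00321) and without proliferative library 1 (-1.99, 0.00853). It was also called with TMM factors from all genes (0.00855), with no filter beyond 1 count (0.000149) and in the second fit (0.000869), but not with RLE factors (0.0135) or without any 1 of the other 6 libraries (0.0207 to 0.0424). *Sec23a* shares 431 exonic bases on the opposite strand with *Gm17529*, which had 59 counts in the resting and 116 in the proliferative zone (log2 fold change -0.32, adjusted p = 0.627). *Sar1a*, the small GTPase that starts coat assembly, measured 30.4, 47.5, 21.9 and 49.1 CPM against 54.4, 71.9, 109 and 70.5 CPM without overlap (log2 fold change -1.08 ± 0.40 (SE), adjusted p = 0.0552). The outer coat gene *Sec31a*, the second GTPase *Sar1b* and the cargo adaptor *Sec24d* had log2 fold changes of -0.58, -0.74 and -0.26 (adjusted p = 0.112, 0.298 and 0.639). *Sec23b*, the paralog of *Sec23a*, stayed under the filter with 54 counts and reached a log2 fold change of -1.08 in the second fit (adjusted p = 0.394). The summed level of the 6 genes was 299 ± 90.0 CPM in resting and 539 ± 82.1 CPM in proliferative libraries, a ratio of 1.80.

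The factors Xbp1 and Atf6 are known to bind elements with a TGACGTGG core, and CREB3-family factors bind related ones. This core, searched on both strands, occurred in the windows of *Sec23a* and *Sec24d*, 2 of the 42 genes, and in those of 0.714% of all genes with a window. The stretch of 30 bases around each match is printed along the gene with the core in capitals, because both genes held it and their log2 fold changes were -1.73 and -0.26, a difference between genes that was not tested. The stretch of *Sec23a* lies at chr12:59011993-59012022 (minus strand), with the core just after the start, and that of *Sec24d* at chr3:123267459-123267488 (plus strand), with the core before it.
*Sec23a*: ctcctccccttTGACGTGGcagaggcggca
*Sec24d*: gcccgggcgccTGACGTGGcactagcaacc

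Within single animals the direction was shared more widely than the calls. On the scale of log2(CPM + 1), 39, 43, 40 and 41 of the 49 genes were lower in the resting library in mice 1, 2, 6 and 13, against 47.2%, 49.9%, 48.5% and 48.6% of all tested genes. The median difference over the 49 genes was -0.74, -1.04, -0.67 and -1.17 in the same order. The summed level in the proliferative library was 1.65, 1.99, 1.88 and 2.22 times that of the resting library. In 29 genes the resting library was the lower one in 4 of 4 mice, and in 0 genes it was the higher one in 4 of 4. Of the 40 tested genes, 27 were lower in 4 of 4 mice, against 22.5% of all tested genes, of which 24.6% were higher in 4 of 4. By step, the 29 were 6 of 9 in the translocon, 6 of 7 in glycosylation, 10 of 14 in folding, 2 of 7 in the unfolded protein response, 1 of 6 in degradation and 4 of 6 in COPII. With a pseudocount of 5 the 4 median differences were -0.70, -0.98, -0.61 and -1.09.

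**Figure D5:**
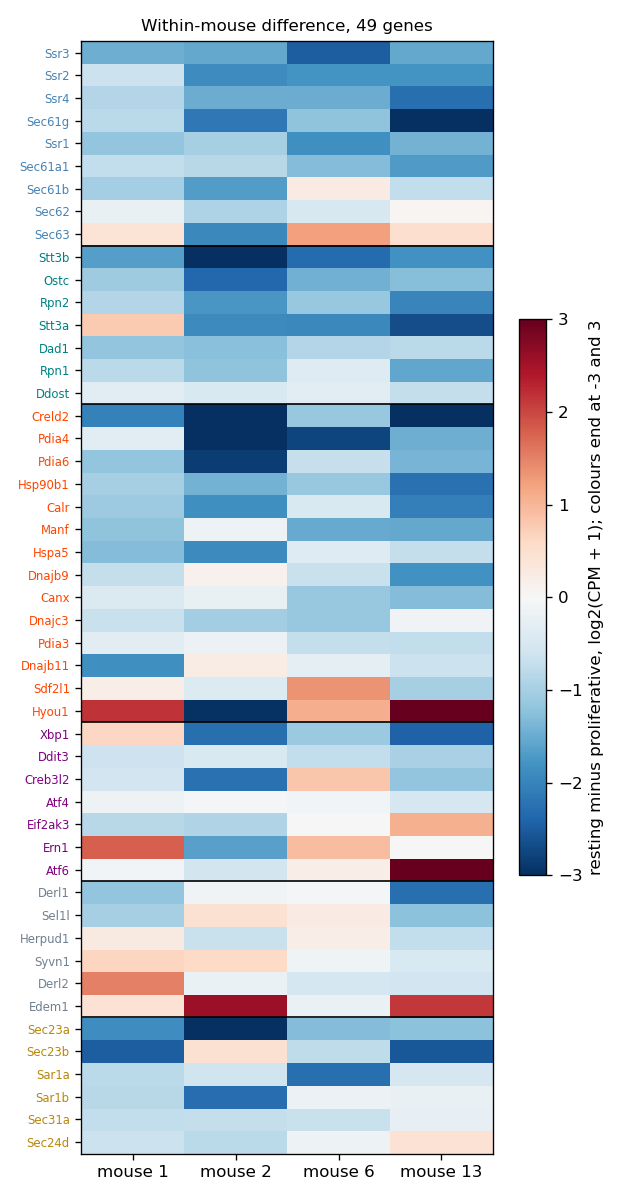
Difference between the resting and the proliferative library of the same mouse on the scale of log2(CPM + 1), for 49 genes (rows, coloured by step, black lines between steps) and 4 mice (columns), where blue is lower in the resting zone and colours end at -3 and 3. Rows of the TRAP genes, *Ostc* and *Stt3b* are blue in all 4 mice, and the rows of degradation are mixed.

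The sexes were compared by the interaction of zone and sex, with 2 mice per sex. By edgeR's quasi-likelihood test 0 of the 40 tested genes and 0 of all 3793 genes had an adjusted p below 0.01, and 1 of the 40 had an unadjusted p below 0.05. The likelihood ratio test found 0 of the 40 and 12 of all 3793. The lowest adjusted p among the 40 was 0.746 with the first test and 0.469, for *Stt3a*, with the second.

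A wider list of 125 further genes of the same route, of which 121 had a count and 59 were tested, gave 7 calls higher in the proliferative zone and 2 in the resting zone, where all tested genes gave 6.93% and 11.0%. The translocating chain-associated protein *Tram1* had means of 233 ± 36.9 CPM in resting and 474 ± 37.8 CPM in proliferative libraries (SD, n = 4; log2 fold change -1.02 ± 0.22 (SE), adjusted p = 0.00377). *Ganab*, the glucosidase that trims glycans before calnexin binds, had 69.3 ± 8.93 and 182 ± 54.8 CPM (log2 fold change -1.37 ± 0.30 (SE), adjusted p = 0.00435). The folding enzymes *P4hb*, the isomerase that is also the beta subunit of collagen prolyl hydroxylase, and *Fkbp11*, a peptidyl-prolyl isomerase, had 252 ± 80.0 against 739.7 ± 139 CPM (log2 fold change -1.55 ± 0.28 (SE), adjusted p = 0.00131) and 10.5 ± 8.15 against 64.2 ± 21.9 CPM (log2 fold change -2.62 ± 0.57 (SE), adjusted p = 0.00366). *Vimp* (*Selenos*), which binds the degradation machinery, differed by a log2 fold change of -1.45. The cargo receptor *Lman1* and the retrieval receptor *Kdelr2*, both of the traffic between ER and Golgi, differed by -1.56 and -1.58. These 7 genes were lower in the resting library in 4 of 4 mice.

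Among the 59 tested genes the pair called higher in the resting zone were *Txndc11*, a thioredoxin-domain protein (516 ± 128 against 50.5 ± 33.7 CPM; log2 fold change 3.35 ± 0.44 (SE), adjusted p = 0.000265), and *Creb3*, a transcription factor of the Creb3l2 family (224 ± 75.9 against 95.5 ± 22.97 CPM; log2 fold change 1.24 ± 0.31 (SE), adjusted p = 0.00897). *Creb3* shares 133 exonic bases on the opposite strand with *Gba2*, which had 562 counts in the resting and 1471 in the proliferative zone. It shares 360 with *Tln1* (72 and 65 counts), and *Txndc11* shares 75 with *Snn* (258 and 541 counts). *Cebpb*, a C/EBP transcription factor that stayed under the filter, passed both thresholds in the same direction in the second fit (34.2 ± 20.7 against 2.01 ± 2.32 CPM; log2 fold change 4.20 ± 0.94 (SE), adjusted p = 5.97e-05). It shares 312 exonic bases on the opposite strand with *Tmem189* (23 counts in the resting and 64 in the proliferative zone). Of the 14 other genes of the unfolded protein response only 3 passed the filter, and 1 of these, *Creb3*, was higher in the resting library in 4 of 4 mice. Over all 14, those under the filter included, 4 were higher in the resting library in 4 of 4 mice and 0 were lower. With the mouse as a replicate block 3 of the 59 genes were called higher in the proliferative zone (*P4hb*, *Fkbp11* and *Kdelr2*) and 1 in the resting zone (*Txndc11*). The shares of all tested genes with the block were 6.06% and 10.2%. Leaving out 1 library gave 2 to 10 calls in the proliferative direction, with 2 without resting library 1 or proliferative library 2 and 3 without resting library 2 or proliferative library 13. The shares of all tested genes called in that direction were 4.31% to 9.61%. They were 4.44% without resting library 1 and 4.77% without proliferative library 2. *P4hb*, *Kdelr2* and *Txndc11* were called in each of these fits, and *Creb3* in 1 of the 8, that without resting library 13. *Tram1*, *Ganab*, *Fkbp11*, *Vimp* and *Lman1* each lost the call in some of them. Over the 59 tested genes the median log2 fold change was -0.67 and 44 lay below 0, against 0.08 and 46.3% over all tested genes. By step the medians were -0.96 in the translocon, -0.75 in glycosylation, -0.30 in folding, 0.49 in the unfolded protein response, 0.01 in degradation and -0.996 in COPII with related traffic genes.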

How the data were processed

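Growth plate cells were cut by laser from 4 mice, with 1 resting and 1 proliferative zone library each, and the RNA was amplified by in vitro transcription. After trimming by BBDuk, the authors aligned reads to GRCm38 with HISAT2 2.1.0, summarised them with HTSeq 0.11.2 on Ensembl annotation and deposited whole-number counts of 43629 genes without normalization. A second deposited table of 11840 genes holds the authors' signal for each library (CPM after TMM scaling), beside their own fold changes and p-values. The signal was used only to check that it is a constant multiple of the counts in each library, and the authors' comparison was not used. Zones, mouse numbers and sexes came from the sample labels.

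The counts were fitted with edgeR 4.0.16 in R 4.3.3: TMM factors, a filter on low counts by zone (filterByExpr, count minimum 10, total minimum 15), a model with the zone only, and the quasi-likelihood test. Benjamini-Hochberg adjustment of the p-values ran over all tested genes, and standard errors were derived from the fitted coefficient and the F statistic. Genes under the filter came from a second fit over the 17492 genes with at least 1 count, with the same scaling. At the limit of 3 counts that a count of 0 allows, a gene could still reach 4.81 to 14.7 CPM. DESeq2 1.42.0 served as an alternative. The labels tie libraries of 1 number to 1 mouse, and the numbers therefore pair them. With zone means removed, same-mouse libraries correlated across genes at 0.165, 0.0136, 0.137 and 0.0577 (mice 1, 2, 6 and 13), against means of -0.0615 to -0.00828 with libraries of other mice. No libraries were as alike as sampling noise allows.

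Coordinates and overlaps came from GENCODE M21 (GRCm38, the authors' build in a later annotation), and promoter windows from RefSeq (GRCm38.p6). The fit was also tested on simulated data with known fold changes. Of the 41 genes simulated with a 2-fold, the 41 with a 3-fold and the 43 with a 4-fold difference between the zones, 1, 19 and 33 were called among 3904 genes tested. The genes of the set, the steps, the other pathway genes, the cell type markers and the alternatives were chosen with earlier results of these data known. The genes given by library are the called ones, the 2 with the lowest p per step among the others, and *Hspa5*, *Hsp90b1*, *Xbp1*, *Atf4*, *Ddit3*, *Sec61a1*, *Sec23a* and *Creb3l2*. *Stt3a* and the sequences shown were chosen after their values were seen. Plots were drawn with matplotlib 3.10.9 in Python 3.11.15.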

Additional observations from a re-analysis of the deposited data

Results flagged for a closer look

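In 1 of 46 sets of 4 libraries (23 genes in 2 zones), a library stood apart from the other 3 by Dixon's gap test at the 95% level. It was *Ssr3* in the proliferative zone, where mouse 13 had 618 CPM and the other 3 mice had 464 to 479 CPM. Chance alone gives such a gap in about 1 of 20 sets. The log2 fold change of *Ssr3* stayed between -1.94 and -1.52 and kept its call in all 16 alternative fits, among them the one without this library. *Stt3a* was not among the 23 genes. Its resting levels were 97.2 CPM in mouse 1 and 19.6 to 23.9 CPM in the other mice.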

How the results depend on the processing

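The 8 calls in the proliferative direction (6.93% of all tested genes were called there) became 13 with the likelihood ratio test, 14 over all genes with at least 1 count, 14 at an adjusted p threshold of 0.05 and 12 with DESeq2, where the shares of all genes called were 10.2%, 2.68%, 11.3% and 9.28%. They became 10 with RLE factors, 6 with at least 10 counts in every library (21 of the 49 genes tested), 7 with the mouse as a replicate block, 12 with TMM factors from all genes and 9 over all genes with the scaling used here, with shares of 7.30%, 9.24%, 6.06%, 9.31% and 2.03%. With 1 library left out they were 6 to 12, with shares of 4.31% to 9.61%. The TMM factors from all genes, the fit over all genes with the scaling used here, and the omission of libraries for the other pathway genes, were added after seeing the data. In the resting direction every alternative gave 0. For the other pathway genes, the 7 proliferative calls became 15 with the likelihood ratio test, 3 with the replicate block and 2 to 10 with 1 library left out, and the 2 resting calls became 3, 1 and 1 to 2. The causes were not tested. Of 354 refitted fold changes of 23 genes given by library, *Stt3a* not among them, 310 kept their side of the thresholds, 30 passed newly, 14 no longer passed and 0 reversed. The replicate block changed no member's call besides those of *Rpn2*, *Hsp90b1* and *Sec23a*. The number of genes lower in the resting zone in 4 mice was 29 with RLE factors too, and 0 members passed an adjusted p of 0.01 for the zone by sex interaction with either test, with 2 mice per sex. The 9 genes under the filter had too few counts to be tested in the main fit.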
